A study of Macaca mulatta with 24 samples.

Results

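Gene expression in the jejunum of rhesus macaques was compared between total-body irradiation (TBI) at 7.4 Gy and at 6.7 Gy, at all 43603 non-control probes of the array and with the day after exposure as a block. The arrays were chosen by their dose label alone, and 20 of the 24 arrays of the series entered, 10 at each dose. At each dose 4 animals had been sampled on day 4, 4 on day 7 and 2 on day 12, so every 7.4-Gy group had a 6.7-Gy group of the same size on the same day. The other 4 arrays came from unirradiated animals labelled as day 4. They entered no test and are given only as a reference level. All animals were young adult males, irradiated animals received 1 uniform exposure to gamma rays from a cobalt source, and each array held Cy3-labelled total RNA from a short piece of whole jejunum of 1 animal, without pooling. A protocol note in the labels gives a later last day than the sample labels do, and the sample labels were followed. The comparison asks whether the higher dose left a different transcript profile from the lower one, and how large a difference these arrays leave room for.

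Ionizing radiation breaks DNA, and the broken ends activate the transcription factor p53, which turns on genes that halt the cell cycle (CDKN1A), repair DNA or start apoptosis (BAX). In the small intestine the dividing cells of the crypts are the most sensitive, and when they die the villi are no longer supplied with new enterocytes until surviving crypts regrow. Fewer crypts survive as the dose rises, which is why neighbouring doses can differ in the depth of mucosal injury. The RNA came from the whole gut wall, and fewer cells of a type and less RNA per cell cannot be told apart in it.

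Probe levels are log2 background-subtracted signals minus the 75th percentile of the array, and a difference is the 7.4-Gy level minus the 6.7-Gy level on that log2 scale, so 1 stands for 2-fold. The tissue label was checked first. Of 16 genes of absorptive enterocytes found on the array, 15 were well above background on all 20 arrays, among them LCT (lactase), FABP1 (a fatty acid carrier) and APOB (the protein of chylomicrons), while ALPI, SI, APOA1 and MGAM were not found by name. FABP6, the bile acid carrier of the distal small bowel, was also well above background on all 20 arrays and ran from -2.05 to 5.88, against -2.13 ± 0.63 (SD, n = 4) in unirradiated jejunum.

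No probe was called different between the doses. In limma's moderated test with Benjamini-Hochberg adjustment, 0 of 43603 probes (0%) had an adjusted p under 0.05, and the smallest adjusted p was 0.891. Before adjustment 2019 probes (4.63%) had a p under 0.05, and 136 of them (0.312%) also differed by 2-fold or more, 127 being higher at 7.4 Gy. The count of 136 ran from 50 to 456 with 1 array left out, both ends set by a 7.4-Gy array of day 12 (replicates 1 and 2). Quantile normalization gave 195, of which 86 were higher, and a fit that blocked on slide position gave 1092. These 136 were mostly dim probes: of the 15797 probes well above background on all 20 arrays, 576 (3.65%) had an unadjusted p under 0.05 and only 3 of those differed by 2-fold, none of which carries a gene symbol.

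A p that misses the threshold puts no limit on a difference, so limits were read from the 95% interval of each probe. Over the 15797 probes well above background on all 20 arrays, the median difference was 0.09 in size, the residual standard deviation between arrays had a median of 0.27, and the interval reached a median of 0.26 to either side, which is 1.20-fold. The whole interval lay within 1.5-fold in both directions for 13514 probes (85.6%), within 2-fold for 15420 (97.6%) and within 4-fold for 15778 (99.9%). A pair of one-sided tests against 2-fold, adjusted over all probes, placed the difference of 15483 probes (98.0%) under 2-fold. For intervals that hold for all 43603 probes at once (Bonferroni), the median reach was 0.89 (1.86-fold), and 8047 of the 15797 probes (50.9%) stayed within 2-fold and 14876 (94.2%) within 4-fold.

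**Figure D1:**
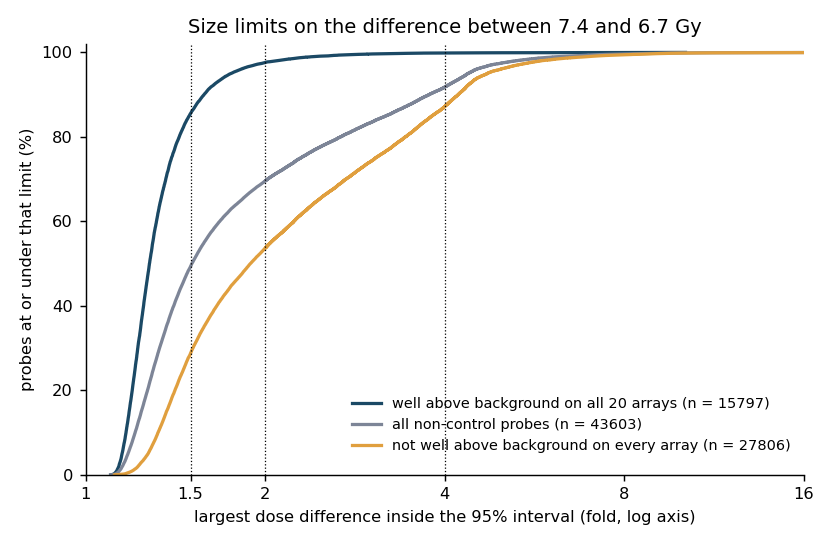
Cumulative share of probes (y axis, percent) whose 95% interval of the dose difference lies wholly within a given fold in both directions (x axis, log scale), by detection class over the 20 arrays. The curve of the 15797 probes well above background on all arrays passes 97.6% at 2-fold, and that of the other 27806 probes 53.6%.

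Read by gene, with the probe of the highest mean level standing for each symbol, 768 of 16123 genes (4.76%) had an unadjusted p under 0.05, and 7380 genes were well above background on all 20 arrays. Of these, 3320 were higher and 4060 lower at 7.4 Gy, with a median difference of -0.01, and 292 (3.96%) had an unadjusted p under 0.05, 116 higher (1.57%) and 176 lower (2.38%). Their intervals lay within 2-fold for 7224 genes (97.9%). For 6 genes the data left room for more than 4-fold. These were FABP6 (up to 9.47-fold), CYP1A1, a xenobiotic-metabolizing enzyme (9.05-fold), SRMS, a tyrosine kinase (6.32-fold), the defensin DEFB4 (4.98-fold), FAM151A (4.56-fold) and GUCY1A3, a guanylate cyclase subunit (4.4-fold). The last 3 are named because they complete this count.

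The limits widened for dim probes. Among the 27806 probes not well above background on every array, 53.6% stayed within 2-fold and the interval reached a median of 0.62, and over all 43603 probes 30333 (69.6%) stayed within 2-fold. Of 3248 probes well above background on no array, 3237 (99.7%) were higher at 7.4 Gy, by a median of 0.48, where no level above background was measured. The detection floor of the arrays, the lowest signal called well above background, was 130 to 277 on the fifth of the 6 slides. On the other slides it lay between 7.41 and 58.8. That slide held 3 arrays at 7.4 Gy and 1 at 6.7 Gy. Without its 4 arrays 132 of the 3248 probes (4.06%) were higher at 7.4 Gy, with a median of -0.44, and with a common floor 3240 of them had no difference left (under 8 decimals). Over all probes, 83 without that slide had an unadjusted p under 0.05 with 2-fold, of which 26 were higher. Signals set to a common floor left 3 such probes.

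**Figure D2:**
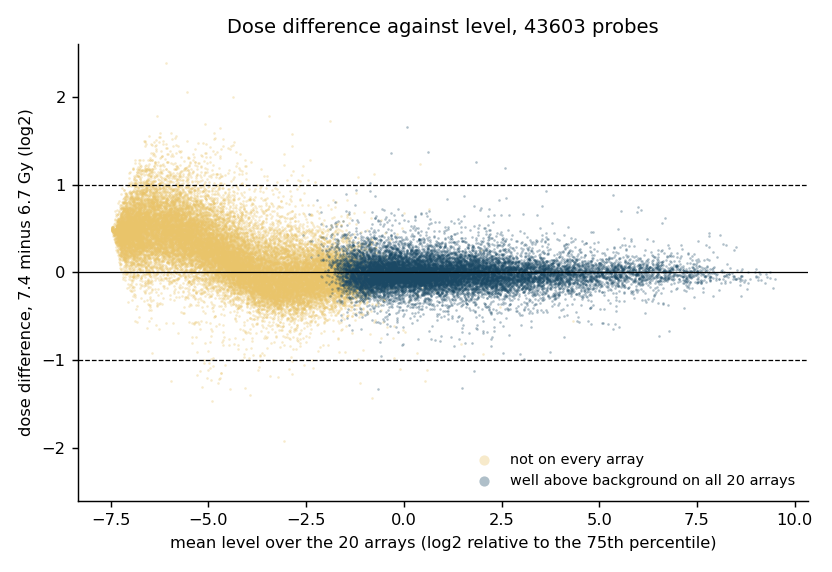
Dose difference of each probe (y axis, log2, 7.4 minus 6.7 Gy) against its mean level over the 20 arrays (x axis, log2 relative to the 75th percentile). Probes below a level of about -5 sit above 0, and the brighter probes spread evenly around it.

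The doses were unevenly spread over slides, scan days and positions on the slide. Position 1 held 2 arrays at 6.7 Gy and 0 at 7.4 Gy, and position 3 held 4 and 2. Scan day 1 held 8 arrays at 6.7 Gy and 4 at 7.4 Gy, and scan day 2 held 2 and 6. On day 12 both 6.7-Gy arrays were scanned on scan day 1 and both 7.4-Gy arrays on scan day 2, so dose cannot be told apart from slide and scan day at that time. At 6.7 Gy between 21648 and 38199 probes (median 33005) were well above background on an array, and at 7.4 Gy between 17159 and 37274 (median 32253). A two-sided exact permutation test of the doses within days gave p = 0.503. It treats the arrays of a day as exchangeable, whatever their slide. The same exact permutation test gave p = 0.456 for the 75th percentile signal and p = 0.234 for the detection floor. In a principal component analysis dose accounted for 1.67% of the first component, which carried 26.5% of the variance and followed day (84.4%), and for 9.94% of the second.

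**Figure D3:**
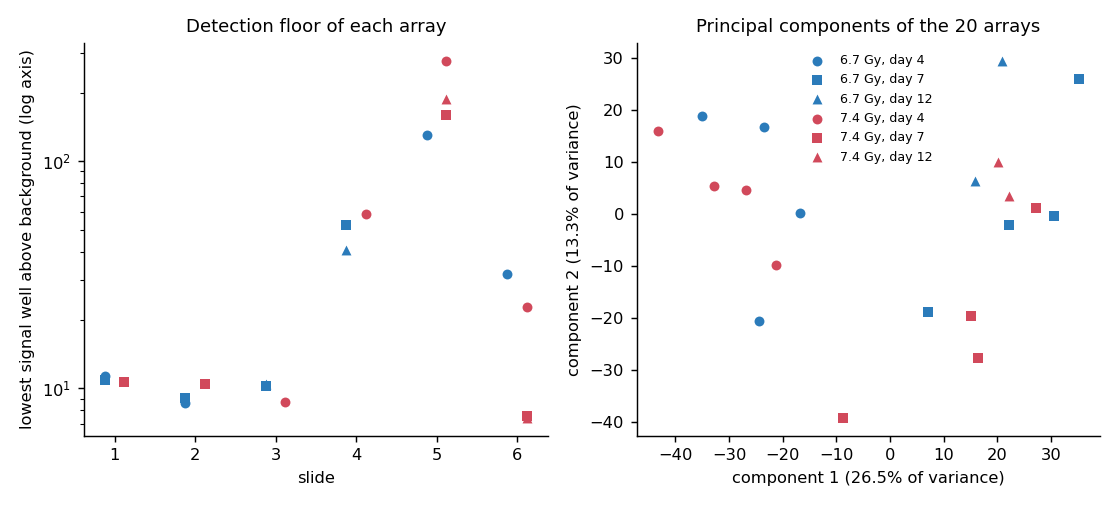
Left, the lowest signal called well above background on each array (y axis, log scale) by slide (x axis), coloured by dose; right, the first and second principal components of the 20 arrays, coloured by dose and marked by day. The fifth slide stands above the rest on the left, and on the right the day 4 arrays part from the later days while the doses intermix.

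The same fit called many probes for time after exposure. The moderated F test of day called 3230 probes (7.41%), 2166 of them well above background on all 20 arrays. Day 7 differed from day 4 at 3182 probes (1696 higher, 1486 lower) and day 12 from day 4 at 2075 (936 higher, 1139 lower), while day 12 differed from day 7 at 1 probe, which has no symbol. At the 2166 probes the fitted range over the days had a median of 0.75 and the dose difference a median size of 0.10. These probes were chosen for their day effect, so the larger range over days is a description. Their dose interval lay within 2-fold at 2141 (98.8%), and at 407 (94.2%) of the 432 whose days spanned 2-fold or more. Over all 15797 probes the medians were 0.34 for the range over days and 0.09 for dose, and the dose difference was the larger one at 1324. A range over several day means tends to exceed a single difference of dose means even without any effect. These sizes are therefore unlike measures and do not show how far day outweighs dose.

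Of 24 p53 targets and radiation dose markers on the array, 17 were well above background on all 20 arrays, and all 17 had intervals within 2-fold (97.9% of all 7380 genes did), 8 higher and 9 lower, with a median difference of -0.03 against -0.01 over all genes. Their median limit was 1.34-fold, against 1.28-fold over all genes. None of the 17 had an unadjusted p under 0.05, where 3.96% of all genes did. The widest limit among them was 1.77-fold, for GDF15, a secreted stress factor. CDKN1A, which encodes the cell cycle inhibitor p21, ran from 3.01 to 4.57 (median 3.87) at 6.7 Gy and from 3.11 to 4.47 (median 3.78) at 7.4 Gy, against 3.19 ± 0.20 (SD, n = 4) in unirradiated tissue. The ranges of the doses overlapped almost wholly. Its difference was -0.09 (95% interval -0.42 to 0.23), so over the days together this interval reached at most 1.34-fold. By day the difference was -0.16 (day 4), -0.32 (day 7) and 0.49 (day 12, 95% interval -0.20 to 1.19).

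EDA2R, a member of the TNF receptor superfamily that p53 induces, stood above the unirradiated level of -2.85 ± 0.24 (SD, n = 4) at both doses. It ran from -1.59 to 1.14 (median -0.24) at 6.7 Gy and from -1.04 to 1.25 (median 0.17) at 7.4 Gy. Its group means went down with time at both doses, from 0.83 to -0.61 and -1.27 at 6.7 Gy and from 0.97 to -0.16 and -0.85 at 7.4 Gy. The 7.4-Gy mean was the higher one on each day. The doses overlapped on days 4 and 7 and not on day 12, when both 7.4-Gy arrays (-1.04 and -0.67) lay above both 6.7-Gy arrays (-1.36 and -1.18), and the difference over the days of 0.32 (95% interval -0.09 to 0.73) had an unadjusted p of 0.118. The pro-apoptotic BAX had a difference of -0.23 (-0.48 to 0.03), SESN1, a stress-induced regulator of growth signalling, of 0.21 (-0.01 to 0.43), and RPS27L of -0.03 (-0.34 to 0.28).

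All 10 DNA repair genes measured on all arrays stayed within 1.5-fold, beside 85.8% of all genes, with a widest limit of 1.46-fold for the damage kinase ATR. Of these 9 were higher at 7.4 Gy, with 3 of 10 higher on day 4, 10 on day 7 and 4 within either scan day. XRCC6, which encodes the Ku subunit that binds broken DNA ends, had one of the narrowest intervals of any listed gene, -0.02 (-0.18 to 0.14). All 14 apoptosis regulators stayed within 2-fold, 5 higher and 9 lower, with 1 higher without the fifth slide and 8 higher within scan day 2. CASP8, the initiator caspase of death receptors, differed by -0.21 (-0.59 to 0.18), MCL1, which holds apoptosis back, by -0.05 (-0.41 to 0.31) and CYCS, the cytochrome c that activates caspases, by 0.10 (-0.22 to 0.42). No member of either group measured on all arrays had an unadjusted p under 0.05, beside 3.96% of all genes. Among all members on the array, dim ones included, 2 of 20 repair genes and 1 of 16 apoptosis regulators did, beside 4.76% of all 16123 genes.

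Proliferation genes stayed within 2-fold as well, and their direction differed by day and by scan day. Of 10 genes of G2/M and mitosis 5 were higher and 5 lower, with a median of 0.00, and of 14 DNA replication genes 10 were higher and 4 lower, with a median of 0.06. TOP2A, the topoisomerase of dividing cells, ran from 1.31 to 2.92 (median 1.95) at 6.7 Gy and from 1.01 to 3.28 (median 2.20) at 7.4 Gy. The 7.4-Gy arrays held both the lowest and the highest value, and the difference was 0.09 (-0.38 to 0.55). MCM7, a subunit of the replicative helicase, differed by 0.05 (-0.30 to 0.39), TYMS, the thymidylate synthase, by 0.18 (-0.26 to 0.62), and CDC20, an activator of mitotic exit, by -0.19 (-0.60 to 0.22).

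With slide as a block beside day, 0 of the 10 mitotic genes were higher and 10 lower (median -0.22), and 1 of the 14 replication genes was higher and 13 lower (median -0.08). Within scan day 1 all 10 and all 14 were lower, with medians of -0.45 and -0.19, and within scan day 2 the counts higher were 4 of 10 and 9 of 14, with medians of -0.02 and 0.03. On day 4, where each dose had 2 arrays of each scan day, 0 of 10 and 2 of 14 were higher, with medians of -0.33 and -0.21. On day 7 the counts were 5 of 10 and 12 of 14, with medians of 0.01 and 0.13. On day 12, where dose and scan day coincide, all 10 and all 14 were higher, with medians of 0.42 and 0.46. The part of the scan day in these directions was not tested.

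**Figure D4:**
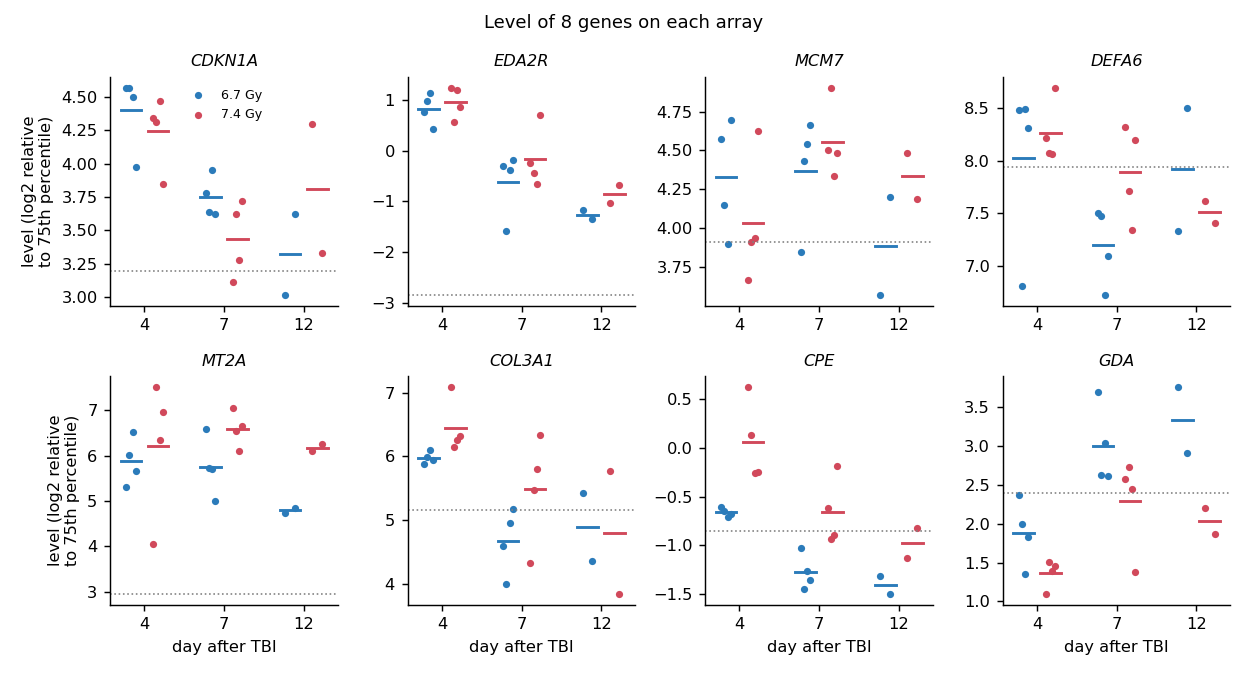
Level (y axis, log2 relative to the 75th percentile) of 8 genes on each of the 20 arrays by day (x axis) and dose (colour); points are arrays, bars group means, and the dotted line the mean of the 4 unirradiated arrays. The doses overlap on every day for CDKN1A, MCM7 and DEFA6 and on days 4 and 7 for EDA2R, whereas the points of CPE are apart on each day.

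Of the 25 genes that the study itself singled out and that were found on the array, 13 were well above background on all 20 arrays, 7 higher and 6 lower at 7.4 Gy, with a median of 0.03. The study chose them on samples that include these. Their intervals lay within 2-fold for 11, and the exceptions were the chemokines CCL11, at 0.57 (-0.03 to 1.17), and CCL23, at 0.33 (-0.90 to 1.56). CCL23 stood at -1.08 within scan day 1, at 0.22 within scan day 2 and at -0.29 with slide as a block. The tight junction genes CLDN4 and CLDN7 differed by -0.29 (-0.54 to -0.04) and -0.35 (-0.74 to 0.04). CLDN4 had an unadjusted p of 0.0248 and limma's adjusted p of 0.891, and its arrays ran from 3.54 to 4.55 (median 4.06) at 6.7 Gy and from 3.33 to 4.2 (median 3.75) at 7.4 Gy. The ranges overlapped over most of their length. GALC, a lysosomal enzyme of sphingolipid breakdown, was well above background on 17 arrays and differed by -0.32 with an unadjusted p of 0.0494, at -0.81 on day 7 and 0.12 within scan day 2. All 14 tight junction genes measured on all arrays stayed within 2-fold, 5 higher and 9 lower.

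The cytokines were poorly limited. TNF, which was well above background on 19 arrays, differed by 0.31 (-0.31 to 0.92). Its value was -0.36 within scan day 1 and 1.65 within scan day 2. IL1A and IL1B, the interleukin 1 genes, were well above background on 7 and 9 of the 20 arrays, so their differences of 0.95 (-0.06 to 1.97) and 0.77 (-0.31 to 1.84) compare mostly unmeasured levels. CXCL8, a neutrophil chemokine, was measured on 14 arrays and differed by -0.23 (-1.44 to 0.98). The matrix metalloproteinase MMP7 was measured on 3, and MMP9, secreted by granulocytes, on all 20, at -0.07 (-0.64 to 0.50). The 8 targets of TNF and NF-kB measured on all arrays all stayed within 2-fold, 4 higher and 4 lower (2 of 8 higher within scan day 1, 8 of 8 within scan day 2), among them NFKBIA, the inhibitor that NF-kB induces, at -0.18 (-0.60 to 0.23).

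All 13 genes of T and NK cells, all 9 of macrophages and dendritic cells and all 6 of B and plasma cells that were measured on all arrays stayed within 2-fold, as 97.9% of all genes did, with medians of -0.08, 0.05 and -0.02. For T and NK genes 1 of 13 was higher within scan day 1 (median -0.22) and 10 were within scan day 2 (median 0.27), and on day 12 1 of 9 macrophage and dendritic cell genes was higher (median -0.24). NKG7, a granule protein of cytotoxic lymphocytes, was held to -0.08 (-0.26 to 0.11), the complement gene C1QA of macrophages to 0.02 (-0.23 to 0.27) and JCHAIN, which joins secreted antibodies, to 0.05 (-0.37 to 0.46). None of these genes had an unadjusted p under 0.05, beside 3.96% of all genes.

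Most stromal genes stood higher at 7.4 Gy, and no member was called. All 14 extracellular matrix and fibroblast genes were higher at 7.4 Gy, with a median of 0.36, and 8 of 9 smooth muscle genes were higher, with a median of 0.29. In all, 10 of the 14 and 8 of the 9 had intervals within 2-fold, beside 97.9% of all genes. LUM, a collagen-binding proteoglycan, ran from -1.47 to 0.78 (median 0.16) at 6.7 Gy and from -0.31 to 1.63 (median 0.60) at 7.4 Gy. Both ends lay higher at 7.4 Gy while the middle of the range was shared, and its difference was 0.64 (0.05 to 1.24, unadjusted p = 0.0364). COL3A1, a fibrillar collagen, differed by 0.49 (-0.09 to 1.07), DCN, a small matrix proteoglycan, by 0.43 (-0.01 to 0.87), and ACTA2, smooth muscle actin, by 0.36 (0.02 to 0.69).

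The stromal lean was not the same on every day or scan day. On day 12 the matrix genes split into 7 higher and 7 lower. Within scan day 1 all 14 matrix and all 9 muscle genes were higher, with medians of 0.66 and 0.60, and within scan day 2 the counts were 10 of 14 and 2 of 9, with medians of 0.08 and -0.24. The summed level of the 16 matrix genes on the array, in multiples of the 75th percentile signal, ran from 54.4 to 154 (median 104) at 6.7 Gy and from 62.0 to 271 (median 137) at 7.4 Gy. How much stroma each piece of gut wall held was not measured, and its part in these differences was not tested.

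Of 15 enterocyte genes 4 were higher and 11 lower, with a median of -0.13, and 14 stayed within 2-fold. APOB ran from 5.88 to 7.13 (median 6.28) at 6.7 Gy and from 4.46 to 6.83 (median 6.14) at 7.4 Gy. The upper parts of the ranges overlapped, and its difference was -0.46 (-0.89 to -0.03), which broke down by day into -0.03 (day 4), -0.95 (day 7) and -0.34 (day 12). APOC3, another apolipoprotein, differed by -0.41 (-0.83 to 0.01), and ANPEP, a brush border peptidase, by -0.37 (-0.73 to 0.0019), but LCT and FABP1 stood at 0.18 (-0.50 to 0.86) and 0.22 (-0.20 to 0.63). On day 12 alone 9 enterocyte genes were higher and 6 lower. Genes that mark position along the small bowel were set beside these: 0 of 5 distal genes were higher, with a median of -0.41, and 6 of 7 proximal genes were, with a median of 0.18. Within scan day 1 these counts were 1 of 5 (median -0.02) and 4 of 7 (median 0.00), and within scan day 2 they were 1 of 5 (median -0.69) and 6 of 7 (median 0.61). The part of where each piece was taken was not tested.

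The secretory lineages were mixed. All 5 goblet cell genes stayed within 2-fold, with TFF3, a trefoil peptide of mucus, at -0.33 (-0.68 to 0.02) and the mucin MUC2 at -0.23 (-0.61 to 0.16). Of 11 Paneth cell and defence genes 8 stayed within 2-fold. DEFA6, a Paneth cell defensin, ran from 6.72 to 8.50 (median 7.49) at 6.7 Gy and from 7.34 to 8.69 (median 8.07) at 7.4 Gy. The doses overlapped over most of that range, and the difference was 0.29 (-0.21 to 0.79). Among 6 enteroendocrine genes NTS, the gut peptide neurotensin, differed by -0.83 (-1.48 to -0.19, unadjusted p = 0.0147) and CHGA, the granule protein chromogranin A, by 0.46 (0.10 to 0.81, unadjusted p = 0.0150). CHGA stood at 0.47 within scan day 1 and at -0.02 within scan day 2. Of 5 crypt base and progenitor genes 3 were higher and 2 lower, from -0.07 to 0.39, with a median of 0.05. Among them CD44, an adhesion receptor, differed by 0.29 (0.04 to 0.54) and SOX9, a progenitor transcription factor, by 0.39 (-0.01 to 0.80). SOX9 stood at 0.03 within scan day 1 and at 0.05 within scan day 2.

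**Figure D5:**
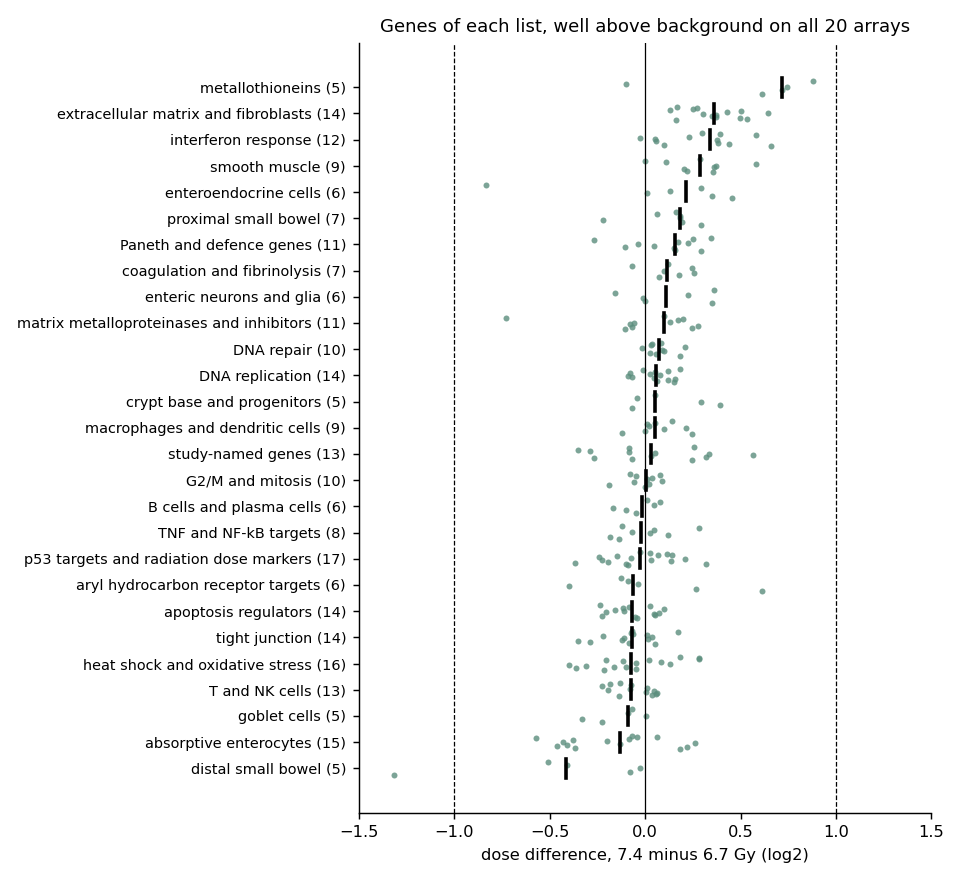
Dose difference (x axis, log2, 7.4 minus 6.7 Gy) of each gene well above background on all 20 arrays, for the gene lists with at least 5 such genes (y axis); dots are genes and bars list medians. The DNA damage, proliferation and leukocyte lists sit around 0, the matrix and muscle lists to its right, and the metallothioneins farthest to the right.

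The metallothioneins, small proteins that bind zinc and copper and are induced by metals and stress, had a median difference of 0.72 over all 20 arrays, 0.23 within scan day 1 and 0.98 within scan day 2. Of 5 measured on all arrays, 4 were higher at 7.4 Gy, and only MT3, at -0.10, stayed within 2-fold. MT2A ran from 4.75 to 6.59 (median 5.69) at 6.7 Gy and from 4.06 to 7.51 (median 6.45) at 7.4 Gy, against 2.94 ± 0.58 (SD, n = 4) in unirradiated tissue. All 20 irradiated arrays lay above the unirradiated mean, and the doses overlapped, the lowest value belonging to 7.4 Gy. The difference was 0.74 (0.02 to 1.46, unadjusted p = 0.0444, limma's adjusted p = 0.891). MT4, the metallothionein of stratified epithelia, differed by 0.88 (0.11 to 1.64), MT1X by 0.72 (-0.02 to 1.45) and MT1E by 0.61, with an interval from just above 0 to 1.23. These genes are related in sequence and their probes may share transcripts, so they were not taken as separate pieces of evidence. Probe sequences were not compared. Within scan day 1 the difference of MT2A was 0.22, and within scan day 2 it was 0.98.

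Interferon response genes were higher at 7.4 Gy for 11 of 12, with a median of 0.34, and 8 of the 12 stayed within 2-fold. On day 7 alone 7 of the 12 were higher (median 0.03), and on day 12 all 12 were (median 0.84). Without day 12 the count was 8 (median 0.13). IFIT1, an interferon-induced sensor of viral RNA, ran from -1.20 to 0.32 (median -0.60) at 6.7 Gy and from -1.33 to 2.69 (median -0.08) at 7.4 Gy. The lower ends nearly coincided and the upper end at 7.4 Gy lay beyond the 6.7-Gy range, and the difference was 0.66 (-0.24 to 1.55), or 0.34 without replicate 3 of 7.4 Gy on day 7 and 0.43 without replicate 1 of 7.4 Gy on day 12. ISG15, a ubiquitin-like protein, differed by 0.06 (-0.74 to 0.85). Within scan day 1, 4 of the 12 were higher (median -0.07), and within scan day 2, 11 were (median 0.54). With slide as a block all 12 were higher (median 0.24), and without the fifth slide 9 were (median 0.09).

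Stress enzymes and the targets of the aryl hydrocarbon receptor gave limits within 2-fold for every member measured on all arrays but CYP1A1. All 16 heat shock and oxidative stress genes stayed within 2-fold, 6 higher and 10 lower, and 3 had an unadjusted p under 0.05, where 97.9% and 3.96% of all genes did so. These were NQO1, a quinone reductase, at -0.40 (-0.74 to -0.06), the chaperone HSPH1 at -0.36 (-0.66 to -0.06) and its partner HSPA8 at -0.21 (-0.43 to -0.0025). HSPH1 stood at 0.06 within scan day 2. CYP1A1 ran from -3.22 to 5.64 (median 1.20) at 6.7 Gy and from -3.62 to 6.22 (median 1.99) at 7.4 Gy, against 5.44 ± 1.32 (SD, n = 4) in unirradiated tissue. The doses overlapped over nearly the whole span. By day its difference stood at 3.05 (day 4), 0.74 (day 7) and -4.54 (day 12), and over the days at 0.61 (-1.96 to 3.18). With 1 array left out the value over the days ran from -0.22 to 1.09.

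Over the 32 lists together 440 of 549 genes were found on the array and 260 were well above background on all 20 arrays. Of these 260, 0 were called, 14 had an unadjusted p under 0.05 (3.96% of all 7380 genes did) and 234 stayed within 2-fold (97.9% of all genes).

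The gene with the smallest p was CPE, a carboxypeptidase that trims peptide hormones. It ran from -1.5 to -0.60 (median -1.15) at 6.7 Gy and from -1.13 to 0.63 (median -0.44) at 7.4 Gy, against -0.85 ± 0.37 (SD, n = 4) in unirradiated tissue. Pooled over days the ranges overlapped, but on each of the 3 days every 7.4-Gy array lay above every 6.7-Gy array. Among the 15797 probes well above background on all 20 arrays this was the only one with such a pattern in either direction (0.00633%). The difference was 0.62 (0.36 to 0.88), or 0.72 on day 4, 0.62 on day 7 and 0.43 on day 12, and it was 0.88 within scan day 1 and 0.37 within scan day 2. Its unadjusted p was 8.46e-05 and limma's adjusted p 0.891, and the two-sided exact permutation test within days gave 6.8e-05, the smallest p that its 29400 arrangements can give. That p is also the share of arrangements with such a pattern, so about the observed share of probes would show it by chance. It follows from the pattern itself and is no separate evidence.

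The other 7 genes with the smallest p among those higher at 7.4 Gy differed by 0.38 to 0.63. FYN, a kinase of the Src family, differed by 0.46 (0.20 to 0.72), and its 3 other probes by 0.39, 0.42 and 0.40. GLIPR2, a Golgi protein, differed by 0.50 (0.22 to 0.79), and ABCA8, a lipid transporter, by 0.63 (0.22 to 1.04). SLC25A12, a mitochondrial aspartate and glutamate carrier, stood at 0.54, LOC706446 at 0.53, ARMC10 at 0.48 and C16H17orf58 at 0.38. The 2 other probes of ARMC10 did not bear its value out, at -0.13 and 0.01.

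On the lower side GDA, the guanine deaminase of purine breakdown, ran from 1.36 to 3.76 (median 2.62) at 6.7 Gy and from 1.09 to 2.73 (median 1.69) at 7.4 Gy. The medians lay almost 1 unit apart while the ranges shared more than a unit. The difference was -0.75 (-1.18 to -0.33, unadjusted p = 0.00152, limma's adjusted p = 0.891), and it was -0.74 within scan day 1 and -0.76 within scan day 2. CREB3L3, a transcription factor of lipid metabolism in liver and intestine, differed by -0.60 (-0.92 to -0.27) and its other probe by -0.43. SLC33A1, an acetyl-CoA transporter, stood at -0.47, SULT2B1, a sulfotransferase of steroids, at -0.54, NEURL at -0.47, RPN1, a subunit of the enzyme that glycosylates new proteins, at -0.43, and PANK4 and RBM23 at -0.29 each. RPN1 stood at -0.02 within scan day 2, and its other probe at -0.19 over all 20 arrays. For RBM23 the 2 other probes stood at -0.48 and 0.03.

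Beside MT4, the genes with the largest differences varied widely between arrays. XG, a blood group antigen, stood at 0.89 (0.20 to 1.58), RPL13, a ribosomal protein, at 0.85 (-0.04 to 1.74) and CFD, a complement factor made by fat cells, at 0.76 (-0.36 to 1.88). RPL13 stood at 0.86 within scan day 1 and at 0.14 within scan day 2. CFD stood at 0.32 within scan day 1, at 2.62 within scan day 2 and at 0.25 without replicate 1 of 6.7 Gy on day 4. SRMS ran from -1.72 to 4.59 (median -1.03) at 6.7 Gy and from -1.60 to -1.02 (median -1.32) at 7.4 Gy. Its difference of -1.32 (-2.66 to 0.01) came from high 6.7-Gy arrays on day 7, where it was -3.18, and was -0.13 on day 4 and -0.01 on day 12, and its other probe stood at 0.09. FABP6 also stood at -1.32 (-3.24 to 0.61), with -4.06 on day 12, and at 0.54 within scan day 1 and -4.25 within scan day 2. IVL, an envelope protein of stratified epithelia, stood at -0.96 (-1.93 to 0.02), and MAML1, a coactivator of Notch signalling, at -0.92 (-1.95 to 0.11), where its other probe stood at -0.11.

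Taken day by day, 0 probes were called on day 4, on day 7 or on day 12 (0% each), with smallest adjusted p values of 0.9999, 0.9995 and 0.9818 by limma. Unadjusted, 599, 1552 and 1373 probes had a p under 0.05. The limits were wider than over the days together: the interval reached a median of 0.42 (1.34-fold) on day 4 and on day 7 and 0.60 (1.51-fold) on day 12, and 90.6%, 87.0% and 72.1% of the 15797 probes stayed within 2-fold. No probe was called for a dose difference that varied between days (moderated F test of dose by day, 0 of 43603 probes, 0%), and 697 had an unadjusted p under 0.05. The test called 5 probes without the fifth slide, 4 and 11 without replicates 1 and 2 of 7.4 Gy on day 12, and 1 without replicate 1 of 6.7 Gy on day 12, all fits in which a day 12 group was a single array. Across the 15797 probes well above background on all 20 arrays, which are not independent replicates, the dose differences of day 4 and day 7 had a correlation of 0.05, those of day 4 and day 12 of -0.06 and those of day 7 and day 12 of 0.17. Without the fifth slide these became -0.04, -0.06 and 0.18.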

How the data were processed

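Per the file headers, the authors scanned 1-color Agilent rhesus macaque arrays and extracted the deposited intensity of each spot with Feature Extraction 11.0.1.1, which subtracts background; the deposited log2 table, made in GeneSpring and set to the 75th percentile, was used as an alternative. Control spots were left out and the spots of a probe averaged, without non-uniform ones where another was left, which gave 43603 probes. Of these, 23795 have a symbol, updated through a RefSeq gene table at 3933 probes, and 19808 have none. The level was log2 intensity minus the array's 75th percentile. The doses were compared in limma 3.58.1 (R 4.3.3) with day as a fixed block on 20 arrays, with Benjamini-Hochberg adjustment over all probes and called at an adjusted p under 0.05; intervals are 95% moderated intervals. Single values per array were tested by exact permutation of doses within days. The fit was tested on simulated data.

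Genes were named by rule: the smallest p and largest difference in each direction, the study's own genes, the members of each list with the smallest p, the highest level or the narrowest and widest interval, and the smallest p on each day. Other list members are named for a list's widest limit. The members and lists were chosen with earlier results of these data known. Alternatives covered background correction (normexp with offset 50 on median signals, since mean signals are not among the columns used here), scaling, floor, filters, slide, position, scan day, weights, test and each array left out. No sequences were used here. The number of arrays limits the precision. Some genes that the rule names are not reported here.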

Additional observations from a re-analysis of the deposited data

Results flagged for a closer look

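Within groups of 4 arrays, 1 array stood far from the other 3 for 31 of 640 combinations of a named gene and a group (4.84%), and chance sets an array apart in about 1 in 20 such groups. On day 4 at 6.7 Gy these were, as log2 levels, A2M at 3.25 and CLDN2 at 1.63 in replicate 1, DEFA6 at 6.81 and RPL13 at 4.02 in replicate 2, MMP3 at 0.253 and HBB at -5.52 in replicate 3, and CDKN1A at 3.98, CYP3A5 at 4.36 and GUCA2A at 3.50 in replicate 4. CDKN1A lay between 4.50 and 4.57 on the other 3 arrays and GUCA2A between 5.10 and 5.25. On day 7 at 6.7 Gy they were BAX at 2.90 and SLCO2B1 at 2.96 in replicate 1, EDA2R at -1.59, JCHAIN at 4.13 and CD79B at -1.05 in replicate 2, LOC706446 at -0.0473 in replicate 3, and LCN2 at 4.23, CXCL8 at -0.49, HPGDS at -1.65 and TMEM131L at -0.656 in replicate 4.

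On day 4 at 7.4 Gy, GZMB stood apart at 2.55 in replicate 1, SOD2 at 2.97 in replicate 2, and HSPA8 at 5.67, MMP12 at -2.45 and NBN at 0.133 in replicate 4. On day 7 at 7.4 Gy these were CXCL17 at -4.76 and CLDN8 at -4.87 in replicate 1, both not well above background there and so not measured levels (CLDN8 was above background on 0 and CXCL17 on 1 of the 10 arrays at 7.4 Gy), FABP6 at 1.78 and S100B at -0.986 in replicate 2, ATR at -1.33 and REG1A at 6.27 in replicate 3, and CXCL16 at -1.70 in replicate 4. Replicate 1 of that group, on the fifth slide, had 46.7% of probes well above background, against 79.9% to 85.2% on the other 3, and its lowest signal well above background was 160. In the 6.7-Gy group of day 7 that signal was 52.5 in replicate 4 and 9.03 to 10.9 on the others.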

How the results depend on the processing

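Under all 45 alternatives 0 probes had an adjusted p under 0.05, with or without 2-fold. The count at an unadjusted p under 0.05 with 2-fold, 136 (93.4% higher), was 64 and 6 (81.2% and 66.7% higher) with probes kept only when above background on every array of a group or on all 20 arrays, 7 (71.4%) with normexp, 3 (66.7%) with a common floor, 83 (31.3%) without the fifth slide, 1092 (97.2%) with position on the slide as a block, 61 (88.5%) with scan day as a block, 77 without day 12, 236 with equal weight per day, 76 (38 of them higher) with array weights and 55 with 1 probe per gene. It was 195 (44.1%) with quantile normalization, 117 (70.1%) with slide as a block and 119 by the methods' t-test. With 1 array left out it ran from 50 to 456. It was 361 without 6.7-Gy day 4 replicate 1; 261, 282, 72 and 278 without 7.4-Gy day 4 replicates 1, 2, 3 and 4; 68, 275 and 279 without 7.4-Gy day 7 replicates 1, 2 and 3; and 50 and 456 without 7.4-Gy day 12 replicates 1 and 2. The causes of these moves were not tested.

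The share of probes within 2-fold stayed between 96.5% and 98.4% and the median reach between 0.24 and 0.31, except within scan day 1 (90.7%, 0.414) and scan day 2 (58.9%, 0.733), settings chosen after seeing the data that hold 12 and 8 arrays; there the unadjusted counts were 175 and 545. Dose by day was called at 5 probes without the fifth slide and, with 1 array left out, at 0 to 11: at 1 (GRPEL2) without 6.7-Gy day 12 replicate 1, and at 4 and 11 without 7.4-Gy day 12 replicates 1 and 2. A day 12 group then held 1 array, assumed to vary like the others. The 5 included LONRF2 and TMEM131L and the 4 SLC29A3 and TMEM131L, and the rest of both have no symbol; the genes outside the naming rule were chosen after their values were seen. Of 7183 values of the 160 named genes, 0 were called, 358 changed sign with 0 inside both intervals, and 4 turned within scan day 2: HSPH1 (0.0552), GALC (0.12), CHGA (-0.0249) and FGB (1.07). Replicate numbers do not pair the animals (correlations of same-numbered arrays from -0.191 to 0.382), and a replicate block gave 0 called and 126 unadjusted.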

Other observations

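The erythroid gene HBA2, measured on all 20 arrays, differed between the doses by -0.09 (95% interval -0.38 to 0.21) and was limited to 1.30-fold. HBB, well above background on 11 arrays, differed by 0.43 (-0.61 to 1.48), a limit of 2.79-fold. All 6 nerve and glia genes measured on all arrays stayed within 2-fold, beside 97.9% of all genes, with a median limit of 1.52-fold against 1.28-fold over all genes. SOX10, a transcription factor of glia, had a difference of 0.00 (-0.17 to 0.17), a limit of 1.13-fold. The endothelial genes PECAM1 and VWF differed by 0.05 (-0.24 to 0.35) and 0.24 (-0.11 to 0.60). Of 7 coagulation genes measured on all arrays 6 were higher and 1 lower, with 4 higher without the fifth slide (median 0.04) and 1 higher on day 12 (median -0.37). FGB, a fibrinogen chain, stood at -0.07 (-1.06 to 0.92), at -0.05 within scan day 1 and at 1.07 within scan day 2. The 2 pancreatic genes measured on all arrays, which a jejunal sample should hold little of, differed by 0.32 and 0.34, and PRSS1 ran from 1.87 to 4.47 at 6.7 Gy and from 2.09 to 4.74 at 7.4 Gy.

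TIMP4, an inhibitor of matrix metalloproteinases, was the one member of its list outside 2-fold. It ran from 0.46 to 2.15 (median 1.47) at 6.7 Gy and from -0.77 to 1.65 (median 0.50) at 7.4 Gy, and differed by -0.73 (-1.29 to -0.16, unadjusted p = 0.0145). The value was -0.70 within scan day 1 and -0.25 within scan day 2.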
